A study of Mus musculus with 7 samples.

Results

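Genes that act in the G2 phase and in mitosis were followed in 7 RNA sequencing libraries of SMB21 cells, a mouse medulloblastoma line. The 37 genes are those rows of the deposited count table whose symbol is on a list of known mitotic genes, out of 24047 genes in the table. All 37 passed the filter on low counts, with 869 to 14324 counts per gene and library. Every group, controls included, has a Ptch mutant background (Ptch1tm1Mps/J), and all cells were grown as neurospheres. GFP control cells (2 libraries) carried a lentiCRISPR guide against GFP. Ofd1 CRISPR cells (3 libraries) carried a guide against Ofd1, which encodes a protein of centrioles and basal bodies. Kif3a CRISPR cells (2 libraries) carried a guide against Kif3a, which encodes a subunit of the kinesin-2 motor that builds cilia. RNA was taken 2 weeks after infection. The age in the labels, for cells of this line, is adult. Whether clones or pools of infected cells were sequenced is not given in the sources used here. Of the 3 GFP replicates in the series text, 2 were used here. The labels call the replicates biological, but nothing says that they were separate cultures, so the p-values measure only the spread between these samples.

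A cell enters mitosis when cyclin A and cyclin B activate the kinase Cdk1, with help from Plk1 and the Aurora kinases. Condensins and topoisomerase II then shape the chromosomes, kinetochores fasten them to spindle microtubules, and the spindle checkpoint holds anaphase back until all are attached. The ubiquitin ligase APC/C with Cdc20 then ends mitosis, and the cell is divided at its midzone by cytokinesis. Transcripts of this machinery peak late in the cell cycle. In resting and G1 cells the DREAM complex keeps many of these genes silent through a short promoter element, the cell cycle genes homology region, and in late cycle the MuvB core with B-Myb (Mybl2) and Foxm1 activates them. The trimeric factor NF-Y binds CCAAT boxes that often lie upstream of this element. Granule neuron progenitors, from which Hedgehog-driven medulloblastoma arises, divide in response to Hedgehog signalling, and Ptch1 is the receptor that restrains that pathway.

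Most of the 37 mitotic genes did not pass the test in either comparison with GFP control, and those that did changed by small amounts. In Ofd1 CRISPR, Anln, Ect2, Top2a and Ncapg fell and Cenpf rose, by 0.26 to 0.41 on the log2 scale in size. In Kif3a CRISPR the same 5 genes passed in the same directions, and Aurka, Aurkb, Cdca8, Bub1 and Prc1 also fell. There 10 of 37 passed, with sizes of 0.28 to 0.50. The shares of members called, 13.5% in Ofd1 CRISPR and 27.0% in Kif3a CRISPR, stand against 14.9% and 20.1% of all tested genes. At an unadjusted p under 0.05 by edgeR there were 12 of 37 in Ofd1 CRISPR, against 30.9% of all tested genes. There were 17 of 37 in Kif3a CRISPR, against 33.9%. For fits without a library that share of all genes was not counted. Both comparisons use the same 2 GFP control libraries. Libraries with the Ofd1 or Kif3a guide are called targeted libraries for short. Mki67, Ccnb1, Ccnb2 and Plk1, chosen for naming here after their values were seen, had log2 fold changes between -0.11 and 0.14 that did not pass. A gene was called at an adjusted p under 0.05 in edgeR's quasi-likelihood test, with the Benjamini-Hochberg adjustment over all 12875 tested genes, and levels are in CPM, counts scaled to library totals that carry a TMM factor. Without GFP control replicate 1, 0 members were called by edgeR in either comparison (at an unadjusted p under 0.05, 7 lower and 0 higher in Ofd1 CRISPR, and 9 lower and 0 higher in Kif3a CRISPR).

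The promoters of these genes are shown first, because they carry the element by which the genes are known to be regulated together. RefSeq windows of GRCm38.p6, from 250 bases before the transcript start through its first 50 bases, were held for 33 of the 37 genes, as 35 windows (Ect2 and Prc1 had a pair of starts each). No window was held for Aurkb, Ccna2, Kif20a and Tpx2. The submitters' notes name the build mm9, and no coordinate of that build is used here. Each sequence reads 5′ to 3′ on the strand of the gene. Capitals mark the homology hexamer TTTGAA, its variant TTCGAA and the CCAAT pentamer, each on either strand, so that matches on the other strand read TTCAAA and ATTGG. First come the 4 genes that fell with both guides and the 1 that rose with both, each with at least 1 of its hexamers.
Top2a, chr11:99024190-99024419, reverse strand: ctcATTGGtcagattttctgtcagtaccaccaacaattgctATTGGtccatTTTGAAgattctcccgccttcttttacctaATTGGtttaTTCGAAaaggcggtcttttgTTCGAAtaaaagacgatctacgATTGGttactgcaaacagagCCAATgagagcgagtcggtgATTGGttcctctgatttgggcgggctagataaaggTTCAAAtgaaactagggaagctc
Ncapg, chr5:45669745-45669924, forward strand: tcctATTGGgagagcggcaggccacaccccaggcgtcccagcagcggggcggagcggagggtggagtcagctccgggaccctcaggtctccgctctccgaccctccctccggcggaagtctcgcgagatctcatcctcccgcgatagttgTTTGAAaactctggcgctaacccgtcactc
Anln, chr9:22389168-22389197, reverse strand: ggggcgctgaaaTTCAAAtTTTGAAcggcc
Ect2, chr3:27153879-27153998, reverse strand: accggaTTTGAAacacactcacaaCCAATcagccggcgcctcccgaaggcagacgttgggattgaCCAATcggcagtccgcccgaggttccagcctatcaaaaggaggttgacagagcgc
Cenpf, chr1:189688078-189688106, reverse strand: gaggggcggcggcggcgggcagTTTGAAt
The stretches of Top2a, Ncapg and Ect2 end at the base before the transcript start (for Ect2, the upstream of its starts). The stretch of Cenpf spans the start and that of Anln lies after it. Top2a held a pair of TTTGAA hexamers, a pair of TTCGAA variants and 6 CCAAT pentamers in 230 bases. Ect2 held another TTTGAA, not printed, at bases 40 to 45 of the transcript from the same start. Anln, the gene with the largest change in both comparisons, held a pair of hexamers on opposite strands within its first 50 transcribed bases and had no CCAAT in its window. Cenpf, which rose, held TTTGAA at bases 3 to 8 of its transcript.

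By edgeR, Aurka, Bub1 and Prc1 were called in Kif3a CRISPR but not in Ofd1 CRISPR, and Cdk1 and Cdc20 in neither comparison. By DESeq2, Bub1 and Cdk1 were also called in Ofd1 CRISPR. All of these genes had the same short elements.
Aurka, chr2:172370526-172370551, reverse strand: taaaaggagaaccTTTGAAttgtaac
Bub1, chr2:127831830-127831855, reverse strand: gcgcggggaaTTCGAAtcgccggcgg
Prc1, chr7:80294406-80294475, forward strand: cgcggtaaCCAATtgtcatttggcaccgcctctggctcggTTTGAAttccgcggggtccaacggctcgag
Cdk1, chr10:69352913-69353002, reverse strand: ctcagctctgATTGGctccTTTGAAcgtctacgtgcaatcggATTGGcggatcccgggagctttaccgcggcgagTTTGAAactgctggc
Cdc20, chr4:118437344-118437403, reverse strand: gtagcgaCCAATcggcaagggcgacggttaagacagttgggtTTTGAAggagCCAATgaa
The stretches of Aurka and Bub1 lie within the first 50 transcribed bases, and the others end just before the start (for Prc1, the downstream of its starts). Bub1 held the TTCGAA variant and no TTTGAA. Over all 35 windows of the mitotic genes, 85.7% held either hexamer, against 19.2% of all 32851 RefSeq windows of the same length. CCAAT was found in 80% against 37.4%, and both elements in 74.3% against 7.52%. Either E2F-type octamer, TTCCCGCC or TTTCCCGC, on either strand, was found in 2.86% against 2.73%. In 25 of the 33 genes a hexamer started within 50 bases of the transcript start, which was so in 77.1% of their windows and 5.31% of all windows. Such a hexamer was found among genes that fell, rose and did not pass alike, and a match is a description of letters, not a measured binding site.

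**Figure D1:**
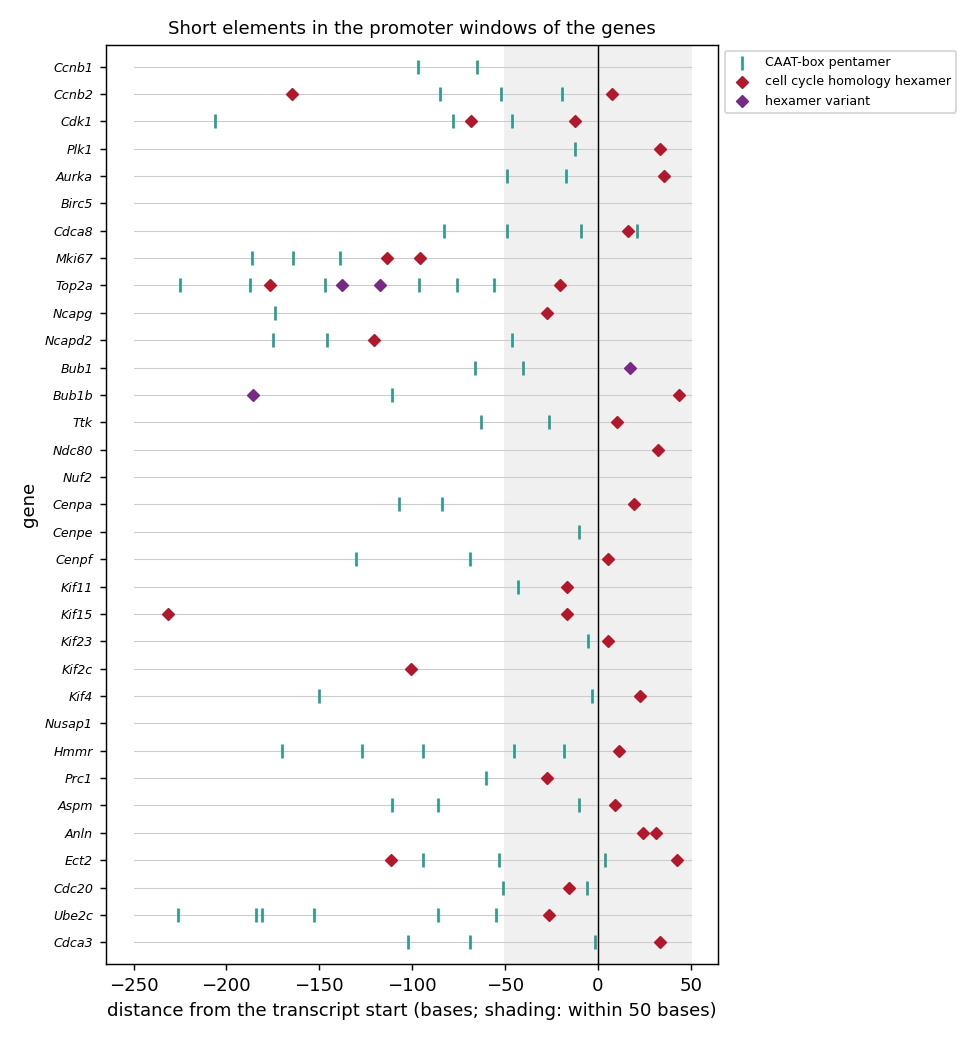
Positions of the short elements in the RefSeq windows of 33 mitotic genes, as distance in bases from the transcript start (vertical line), with 1 row per gene in order of role. Diamonds are hexamers (red, homology hexamer; purple, its variant), green ticks are CCAAT pentamers, and shading marks 50 bases either side of the start, where 25 genes have a hexamer; for Ect2 and Prc1 the window with the higher coordinate is drawn.

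The libraries set what could be seen. Totals ran from 17961767 to 23022701 counts, and the median width of a 95% confidence interval on either side of a member's log2 fold change was 0.179 in Ofd1 CRISPR and 0.197 in Kif3a CRISPR. The Kif3a transcript was lower with its guide (-0.63, adjusted p = 0.000854). The Ofd1 transcript had a log2 fold change of -0.12 with its own guide (adjusted p = 0.398). A lower Ofd1 level than in GFP control was thus not detected, and editing was not checked here. In Kif3a CRISPR the Ofd1 transcript was higher than in GFP control (0.41, adjusted p = 0.0126). It was lower in Ofd1 CRISPR than in Kif3a CRISPR (-0.53, adjusted p = 0.0399). All 9 granule neuron progenitor markers were tested, with a summed level of 2860 to 2887 CPM in GFP control, 3096 to 3562 in Ofd1 CRISPR and 3331 to 3416 in Kif3a CRISPR. The sum joins markers that moved opposite ways. Atoh1 (364 to 388 CPM in GFP control, 496 to 620 in the targeted libraries), Barhl1 (637 to 639, 831 to 1110) and Pax6 (129 to 131, 202 to 271) were higher in every targeted library. Gli1 (427 to 477, 167 to 326) and Mycn (63.1 to 67.2, 43.4 to 57.4) were lower in every one. Of 11 microglia and macrophage markers 3 passed the filter, and their list summed to 44.43 CPM in GFP control replicate 1 (Cd74 28.06, Lyz2 5.946) against 3.107 in replicate 2, 3.701 to 5.372 in Ofd1 CRISPR and 3.326 to 3.666 in Kif3a CRISPR. Of 8 fibroblast markers 3 passed, with sums of 258.4 to 271.4 CPM in GFP control, 81.07 to 170.4 in Ofd1 CRISPR and 90.66 to 132.3 in Kif3a CRISPR, nearly all of it Pdgfra. Cldn5 (endothelial) and Mog and Sox10 (oligodendrocyte lineage) had no count in any library, and 1 of 6 markers passed in each of these lists. The endothelial list summed to 2.015 to 2.155 CPM in GFP control, 0.9856 to 1.558 in Ofd1 CRISPR and 0.5183 to 0.7008 in Kif3a CRISPR, and the oligodendrocyte list to 5.412 to 5.602, 4.729 to 6.9 and 6.307 to 6.954 CPM. The part of these cell types in the results was not tested. In bulk RNA, fewer cells in mitosis and less mitotic RNA per cell cannot be told apart.

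In GFP control, levels per kilobase of the gene's longest annotated coding transcript (GENCODE M21) spanned from 134 CPM per kb for Ncapd2, a condensin I subunit, to 12.4 for Cenpe, a kinetochore kinesin. Next to Ncapd2 came Top2a at 132, Ccna2 at 114 and Cdc20 at 103.6 CPM per kb. At the low end, Kif4 stood at 16.2 and Kif15 at 13.8. The values of Ncapd2 (134.0 and 134.6) lay within those of Top2a (127 and 137.5), so the first place was not separated. Annotated lengths, not the isoforms used in these cells, set this order.

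In Ofd1 CRISPR against GFP control, which asks what changed in cells with a guide against a basal body gene, 5 of 37 mitotic genes passed (13.5%), against 14.9% of all tested genes. By direction, 4 were lower and 1 was higher, where 8.09% of all genes were lower and 6.79% higher. The median log2 fold change of the 37 was -0.013, against 0.0028 over all tested genes, and 17 were above and 20 below 0. In 12 genes every Ofd1 CRISPR library lay below both GFP control libraries (32.4%, against 25.0% of all genes), and in 4 genes every one lay above (10.8%, against 24.5%). The 4 were Cenpe, Cenpf, Aspm and Cdc20, chosen for naming after their values were seen. The share of members called was thus near that of all genes. By direction, the shares called lower (10.8%, against 8.09%) and higher (2.70%, against 6.79%) rest on 4 genes and 1 gene, too few to read as a lean. The groups without overlap were more often lower, while the signs of all 37 were close to even. In a fit without Ofd1 CRISPR replicate 1, 1 member was called lower and 1 higher, and the median was 0.022.

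In Kif3a CRISPR against GFP control, which asks the same of a ciliary motor subunit, 10 of 37 passed (27.0%), against 20.1% of all tested genes. Here 9 were lower, where 10.9% of all genes were lower, and 1 was higher, where 9.19% were higher. The median was -0.106, against 0.0080 over all genes, and 27 of 37 lay below 0. In 23 genes both Kif3a CRISPR libraries lay below both GFP control libraries (62.2%, against 32.4% of all genes), and in 5 genes both lay above (13.5%, against 34.0%). The calls depended on which libraries were in the fit. With 2 libraries each in GFP control and Kif3a CRISPR, leaving 1 out leaves a group of 1. Loss of calls is then partly set by the design, and fewer of all tested genes were called as well. Among the 9 lower genes in Kif3a CRISPR, log2 fold changes over the libraries left out moved least for Anln (-0.51 to -0.49). They moved most for Aurkb (-0.48 to -0.22). In Ofd1 CRISPR, Top2a, Ncapg and Ect2 kept a call without Ofd1 CRISPR replicate 3 and lost it without any other library, with adjusted p of up to 0.282, 0.180 and 0.177. In Kif3a CRISPR, Aurka, Aurkb, Cdca8, Top2a, Ncapg, Bub1, Prc1 and Ect2 lost their calls when either GFP control library or Kif3a CRISPR replicate 1 was left out. Their adjusted p then reached 0.203, 0.249, 0.132, 0.160, 0.233, 0.154, 0.186 and 0.235. The last 5 of these genes also lost it without Kif3a CRISPR replicate 2, and Ect2 without Ofd1 CRISPR replicate 2. The count of 9 lower was 0 without GFP control replicate 1 (9 at an unadjusted p under 0.05, edgeR), 1 without GFP control replicate 2, 0 without Kif3a CRISPR replicate 1 (6 unadjusted) and 3 without Kif3a CRISPR replicate 2.

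**Figure D2:**
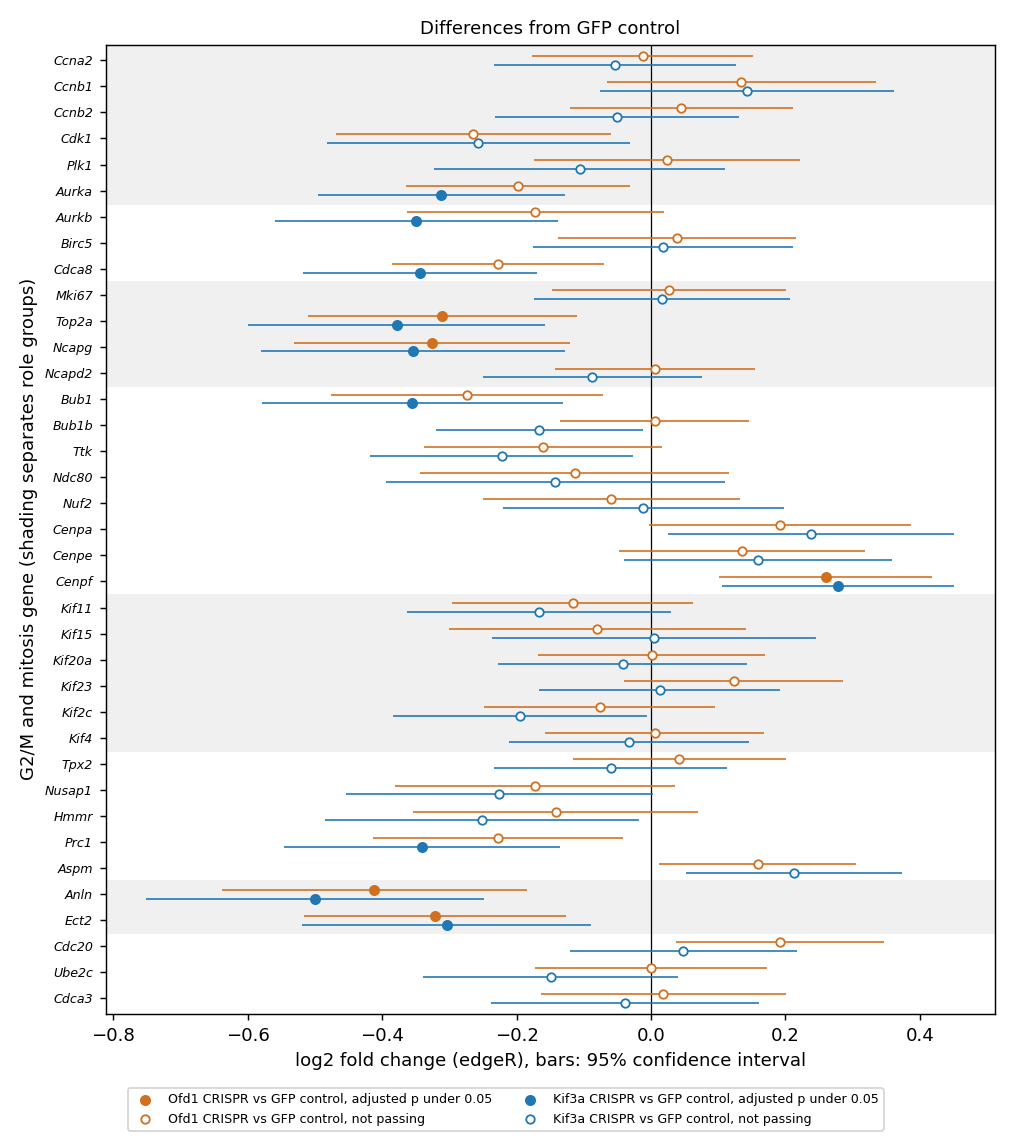
Log2 fold change of each of the 37 genes against GFP control in edgeR, for Ofd1 CRISPR (orange) and Kif3a CRISPR (blue), with bars for the 95% confidence interval and filled points for an adjusted p under 0.05. Filled points lie to the left of 0 except for Cenpf, and number 5 in Ofd1 CRISPR and 10 in Kif3a CRISPR.

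Among the 6 cyclins and entry kinases, Aurka fell in Kif3a CRISPR. In Ofd1 CRISPR 0 passed by edgeR or limma-voom and 1 by DESeq2, and 2 had an unadjusted p under 0.05, Cdk1 and Aurka. Unadjusted results in each role group can be read against 30.9% of all tested genes in Ofd1 CRISPR and 33.9% in Kif3a CRISPR. Aurka encodes Aurora A, the kinase of the spindle poles. It measured 101.6 and 101.4 CPM in GFP control, 81.3, 93.3 and 90.8 in Ofd1 CRISPR and 78.4 and 85.3 in Kif3a CRISPR. All 5 targeted libraries were below both controls. The log2 fold change was -0.31 in Kif3a CRISPR (SE 0.0842, adjusted p = 0.0229) and -0.20 in Ofd1 CRISPR (SE 0.0765, adjusted p = 0.102). Cdk1, the kinase of mitotic entry itself, measured 255 and 259.7 CPM in GFP control, 188, 219 and 236 in Ofd1 CRISPR and 200.7 and 230.4 in Kif3a CRISPR. Again no targeted library reached the controls, but the changes of -0.26 in each did not pass by edgeR (adjusted p = 0.0788 and 0.101). Cdk1 was the 1 gene of this group that passed by DESeq2 in Ofd1 CRISPR.

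The cyclins did not pass in either comparison by edgeR. Ccnb1, cyclin B1, measured 74.2 and 71.7 CPM in GFP control, 72.2, 76.9 and 91.0 in Ofd1 CRISPR and 80.4 and 80.6 in Kif3a CRISPR, so that 4 of 5 targeted libraries were above both controls. Its log2 fold changes were 0.13 and 0.14 (adjusted p = 0.349 and 0.343). Ccnb2, cyclin B2, had 0.045 and -0.051, and Ccna2, cyclin A2, had -0.013 and -0.054. The sign of the Ccna2 value in Ofd1 CRISPR differed between TMM, RLE and library-total scaling. Plk1, the Polo kinase, stood at 137.6 and 131.5 CPM in GFP control and ran from 126.9 to 150.9 in Ofd1 CRISPR, with 114.6 and 135.7 in Kif3a CRISPR. Its groups overlapped, with log2 fold changes of 0.024 and -0.11 (adjusted p = 0.887 and 0.486).

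The chromosome passenger complex places Aurora B at centromeres and then at the midzone. Of its 3 genes here, Aurkb and Cdca8 fell in Kif3a CRISPR. In Ofd1 CRISPR 0 passed by edgeR or limma-voom, and Cdca8 had an unadjusted p under 0.05 and passed by DESeq2. Aurkb, the kinase, measured 119.7 and 118.9 CPM in GFP control, 96.5, 110.1 and 111 in Ofd1 CRISPR and 85.6 and 101.9 in Kif3a CRISPR. Its log2 fold change was -0.35 in Kif3a CRISPR (SE 0.0965, adjusted p = 0.0253) and -0.17 in Ofd1 CRISPR (SE 0.0875, adjusted p = 0.208). Cdca8, the Borealin subunit, measured 129 and 133 CPM in GFP control, 104, 118 and 114 in Ofd1 CRISPR and 99.5 and 107 in Kif3a CRISPR. Its log2 fold change was -0.34 in Kif3a CRISPR (SE 0.0799, adjusted p = 0.0111) and -0.23 in Ofd1 CRISPR (SE 0.0725, adjusted p = 0.0544). For both genes every targeted library lay below the controls. Birc5, the Survivin subunit of the same complex, had 83.2 and 75.2 CPM in GFP control and 75.2 to 85.2 across the targeted libraries, and its changes of 0.038 and 0.018 did not pass.

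Of 4 genes of chromosome structure, Top2a and Ncapg fell in both comparisons while Ncapd2 and Mki67 did not pass. Top2a, topoisomerase II alpha, which untangles sister chromatids, measured 663 and 718 CPM in GFP control, 486, 565 and 619.7 in Ofd1 CRISPR and 528 and 534 in Kif3a CRISPR. The highest targeted library was below the lower control. The log2 fold change was -0.31 (SE 0.0916, adjusted p = 0.0417) in Ofd1 CRISPR and -0.38 (SE 0.101, adjusted p = 0.0217) in Kif3a CRISPR. Ncapg, a HEAT-repeat subunit of condensin I, measured 127.9 and 127.3 CPM in GFP control, 87.4, 105 and 113 in Ofd1 CRISPR and 96.8 and 103 in Kif3a CRISPR. Its groups did not overlap either, with log2 fold changes of -0.33 (SE 0.0940, adjusted p = 0.0375) and -0.35 (SE 0.104, adjusted p = 0.0326). Ncapd2, its partner in condensin I, measured 620.4 and 623 CPM in GFP control, 614, 663 and 596 in Ofd1 CRISPR and 577 and 593 in Kif3a CRISPR. The Ncapd2 log2 fold changes were 0.0062 and -0.088. Mki67, which encodes the antigen Ki-67 and is the usual marker of cycling cells, had 383 and 423 CPM in GFP control against 388, 449 and 395 in Ofd1 CRISPR and 415 and 399 in Kif3a CRISPR. Here the groups overlapped throughout. The Mki67 changes were 0.026 (95% interval -0.15 to 0.20) and 0.016 (-0.17 to 0.21), so a change the size of that of Top2a in Kif3a CRISPR lay outside both intervals.

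The 8 kinetochore and checkpoint genes split. Cenpf, a large coiled-coil protein of the outer kinetochore, was the 1 member that rose in both comparisons. It measured 236 and 257 CPM in GFP control, 302, 302 and 282 in Ofd1 CRISPR and 313 and 285 in Kif3a CRISPR. All targeted libraries were above both controls, with log2 fold changes of 0.26 (SE 0.0727, adjusted p = 0.0332) and 0.28 (SE 0.0791, adjusted p = 0.0286). Without GFP control replicate 1 the adjusted p of Cenpf was 0.301 and 0.252, and without GFP control replicate 2 it was 0.0910 and 0.0653. In Ofd1 CRISPR its call was also lost without replicate 1 (0.0602) or 2 (0.0877) of that group, and in Kif3a CRISPR without replicate 1 (0.201). Cenpa, the centromeric histone, had changes of 0.19 and 0.24, and Cenpe of 0.14 and 0.16, which did not pass. For both genes the Kif3a CRISPR libraries lay above the controls, and Cenpa had an unadjusted p under 0.05 by edgeR in Kif3a CRISPR.

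The checkpoint kinase Bub1 measured 139 and 142 CPM in GFP control, 101.2, 116 and 131 in Ofd1 CRISPR and 112 and 107 in Kif3a CRISPR. No targeted library overlapped the controls. The log2 fold change was -0.36 in Kif3a CRISPR (SE 0.102, adjusted p = 0.0306) and -0.27 in Ofd1 CRISPR (SE 0.0929, adjusted p = 0.0685). In Ofd1 CRISPR, Bub1 passed under 4 of 15 alternatives, DESeq2 among them. Bub1b, the related checkpoint protein BubR1, had changes of 0.0058 in Ofd1 CRISPR and -0.17 in Kif3a CRISPR, and Ttk, the kinase Mps1 that starts the checkpoint signal, had -0.16 and -0.22. The microtubule-binding Ndc80 complex is represented by Ndc80 (-0.11 and -0.14) and Nuf2 (-0.059 and -0.011). None of these 4 genes passed in either comparison by edgeR, though Bub1b and Ttk had an unadjusted p under 0.05 in Kif3a CRISPR. The sign of Nuf2 in Kif3a CRISPR differed between scalings.

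Of the 6 mitotic kinesins 0 passed in either comparison by edgeR, DESeq2 or limma-voom, and 0 in Ofd1 CRISPR and 1 in Kif3a CRISPR, Kif2c, had an unadjusted p under 0.05. Kif2c, the microtubule depolymerase MCAK, had the largest change among them in Kif3a CRISPR, with 119 and 119.96 CPM in GFP control, 102, 118.7 and 118.6 in Ofd1 CRISPR and 100.4 and 108 in Kif3a CRISPR. Its log2 fold changes were -0.076 (SE 0.0787, adjusted p = 0.550) and -0.19 (SE 0.0864, adjusted p = 0.135). Kif11, the motor Eg5 that pushes spindle poles apart, had -0.12 and -0.17. Kif23, a motor of the central spindle, had 0.12, the largest of the 6 in Ofd1 CRISPR, and 0.013. Kif20a had 0.0010 and -0.042, Kif15 had -0.080 and 0.0046, and Kif4 had 0.0052 and -0.033. The sign of Kif20a in Ofd1 CRISPR and of Kif15 in Kif3a CRISPR differed between scalings.

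Of 5 spindle assembly and midzone genes, Prc1 fell in Kif3a CRISPR. In Ofd1 CRISPR 0 passed by edgeR, DESeq2 or limma-voom, and 2 had an unadjusted p under 0.05, Prc1 and Aspm. Prc1, which bundles the antiparallel microtubules of the midzone, measured 216 and 223 CPM in GFP control, 165, 193 and 205 in Ofd1 CRISPR and 171 and 176 in Kif3a CRISPR. Every targeted library was below both controls. The log2 fold change was -0.34 in Kif3a CRISPR (SE 0.0938, adjusted p = 0.0250) and -0.23 in Ofd1 CRISPR (SE 0.0851, adjusted p = 0.0934). The spindle proteins Nusap1 (-0.17 and -0.23) and Hmmr (-0.14 and -0.25) did not pass. Tpx2, the activator of Aurora A, had 0.042 and -0.060. Aspm, the spindle pole protein mutated in a primary microcephaly, measured 193 and 205 CPM in GFP control, 216, 232 and 219 in Ofd1 CRISPR and 237 and 224 in Kif3a CRISPR. Its groups did not overlap, but the changes of 0.16 and 0.21 did not pass (adjusted p = 0.135 and 0.0615).

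Both cytokinesis genes fell in both comparisons. Anln encodes anillin, the scaffold of the contractile ring. It measured 174 and 173 CPM in GFP control, 108, 136 and 147 in Ofd1 CRISPR and 123 in both Kif3a CRISPR libraries. Anln had the largest change of the 37 in each comparison, with log2 fold changes of -0.41 (SE 0.104, adjusted p = 0.0216) and -0.50 (SE 0.115, adjusted p = 0.0106). Without GFP control replicate 1 the Anln values were -0.41 (adjusted p = 0.122) and -0.49 (0.0587), and without Kif3a CRISPR replicate 1 the second was -0.49 (0.118). Its call was also lost in Ofd1 CRISPR without GFP control replicate 2 (0.101) or Kif3a CRISPR replicate 1 (0.0548) or 2 (0.0544), and without Kif3a CRISPR replicate 2 in Kif3a CRISPR (0.0727). Ect2, the exchange factor that activates RhoA at the cell equator, measured 177 and 180.4 CPM in GFP control, 125, 143 and 161 in Ofd1 CRISPR and 144 and 146 in Kif3a CRISPR. The controls again stood above all targeted libraries, with log2 fold changes of -0.32 (SE 0.0893, adjusted p = 0.0320) and -0.30 (SE 0.0984, adjusted p = 0.0480).

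Of the 3 genes of the mitotic ubiquitin ligase and its partners 0 passed in either comparison by edgeR, DESeq2 or limma-voom. In Ofd1 CRISPR 1 had an unadjusted p under 0.05, Cdc20, and in Kif3a CRISPR 0 did. Cdc20, the activator of APC/C, measured 189 and 183 CPM in GFP control, 209.7, 220.4 and 206 in Ofd1 CRISPR and 181 and 203 in Kif3a CRISPR. All Ofd1 CRISPR libraries were above the controls and the Kif3a CRISPR libraries lay either side of them, with log2 fold changes of 0.19 (SE 0.0709, adjusted p = 0.0892) and 0.048 (SE 0.0773, adjusted p = 0.697). Ube2c, the ubiquitin-conjugating enzyme of APC/C, had -0.00049 and -0.15, the first with a sign that differed between scalings. Cdca3, a cell cycle protein linked to entry into mitosis, had 0.018 and -0.039.

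**Figure D3:**
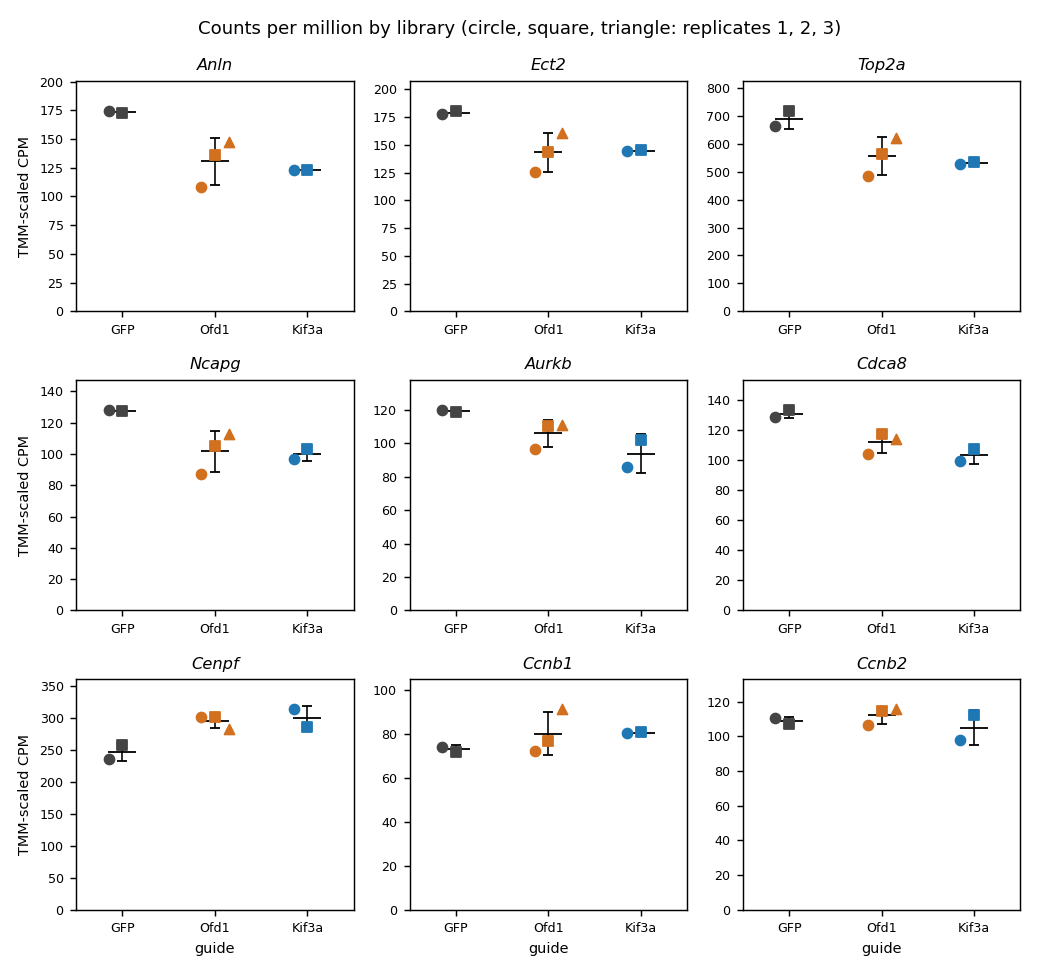
TMM-scaled CPM of 9 genes by library, with the mean and the SD of each group in black and replicates 1, 2 and 3 as circle, square and triangle; each axis starts at 0. Anln, Ect2, Top2a, Ncapg, Aurkb and Cdca8 are lower in all 5 targeted libraries than in GFP control, Cenpf is higher in all 5, and for Ccnb1 and Ccnb2 the Ofd1 CRISPR values overlap those of GFP control.

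The libraries numbered 1 stood low within both targeted groups across the mitotic genes. Ofd1 CRISPR replicate 1 was the lowest of the 3 Ofd1 CRISPR libraries in 34 of the 37 genes, where it was the lowest in 34.3% of all tested genes. Kif3a CRISPR replicate 1 was the lower of its pair in 26 of 37, against 48.6% of all genes. The former was the lowest of all 7 libraries in 16 of the 37 genes (18.1% of all genes), and the latter in 12 (17.7%). The median log2 ratio of the 37 genes to the GFP control mean was -0.147 in Ofd1 CRISPR replicate 1, and 0.024 and 0.019 in replicates 2 and 3. In Kif3a CRISPR it was -0.156 in replicate 1 and -0.084 in replicate 2. The summed level of the 37 genes was 6709 and 6854 CPM in GFP control, 5979.6, 6764 and 6736 in Ofd1 CRISPR, and 6161 and 6322 in Kif3a CRISPR. The sums of 2 Ofd1 CRISPR libraries thus lay between the controls. Gli1, a transcription factor induced by Hedgehog signalling, was also lowest in the replicates numbered 1, at 167.5 CPM against 326 and 265 in Ofd1 CRISPR and at 201.5 against 309 in Kif3a CRISPR, with 427 and 477 in GFP control. Its part in the library order was not tested.

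The spread within a group was wide for these genes in Ofd1 CRISPR. The median SD of log2 levels over the 37 genes was 0.123 there, against 0.082 for the 5481 tested genes at least as abundant as the least abundant member. In GFP control the medians were 0.0333 and 0.0356, and in Kif3a CRISPR 0.059 and 0.063. Without Ofd1 CRISPR replicate 1 the median log2 fold change of the 37 genes in Ofd1 CRISPR turned to 0.022, and it was 0.021 with library totals alone. The count of 4 lower was 0 without GFP control replicate 2 (3 unadjusted, edgeR), 1 without Ofd1 CRISPR replicate 1 or 2, 10 without its replicate 3, and 0 without Kif3a CRISPR replicate 1 or 2 (9 unadjusted each), fits in which 13240 and 13272 genes were tested.

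**Figure D4:**
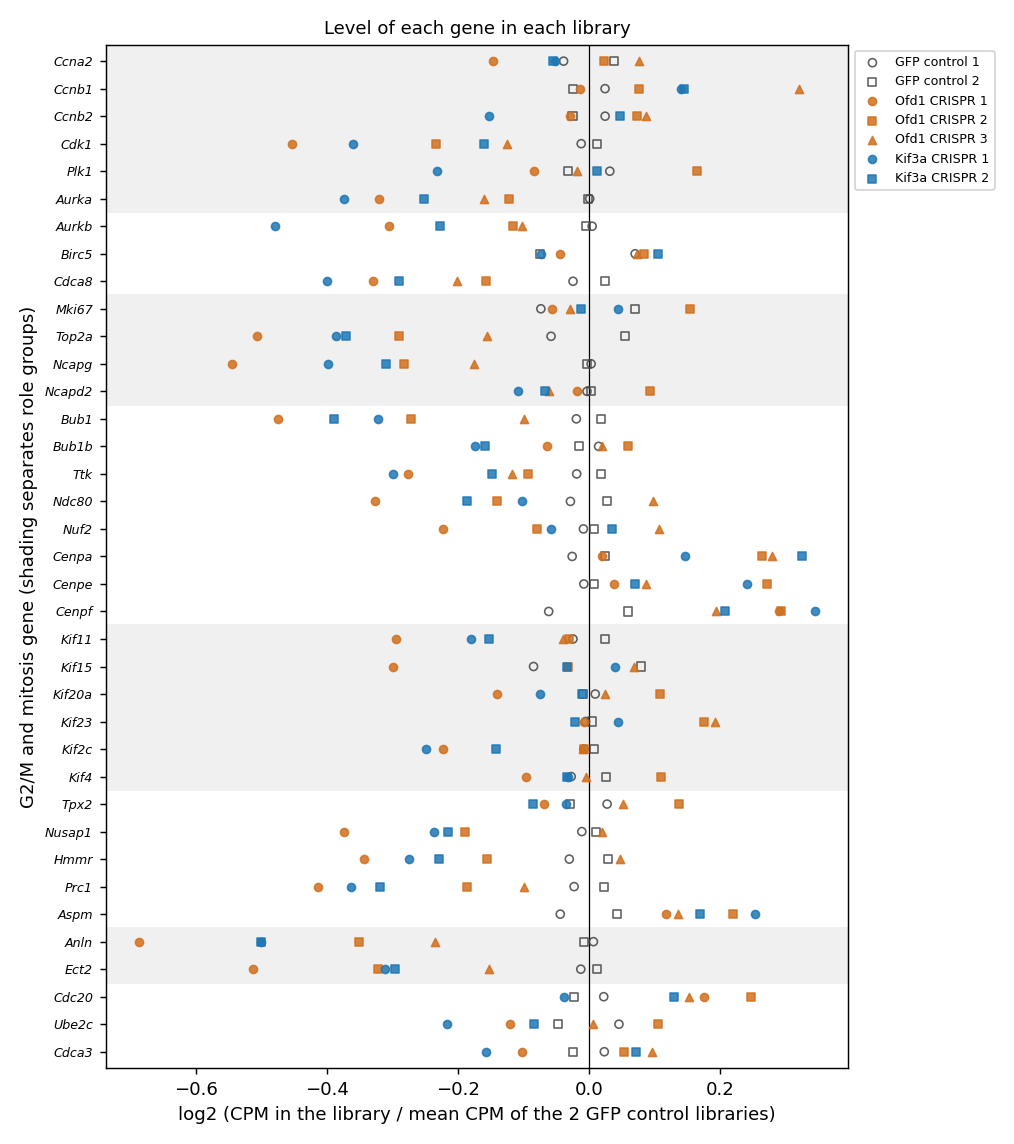
Log2 ratio of each library's CPM to the mean CPM of the GFP control libraries, for the 37 genes in order of role; open symbols are GFP control, orange Ofd1 CRISPR and blue Kif3a CRISPR, and symbol shape gives the replicate. Orange circles, Ofd1 CRISPR replicate 1, lie leftmost of the orange symbols in 34 of 37 genes.

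Ofd1 CRISPR was compared with Kif3a CRISPR directly, to ask whether the guides differed. By edgeR 0 of 37 genes passed, against 0.179% of all tested genes. By DESeq2 and by limma-voom 0 passed as well. By edgeR 1 gene had an unadjusted p under 0.05, Bub1b (adjusted p = 0.447), against 9.55% of all tested genes. The log2 differences, Ofd1 CRISPR minus Kif3a CRISPR, ran from -0.084 in Kif15 to 0.18 in Aurkb with a median of 0.057, and 28 of 37 were above 0. Without Ofd1 CRISPR replicate 1, 12 genes had an unadjusted p under 0.05, and without Kif3a CRISPR replicate 2, 4 did, all of them higher in Ofd1 CRISPR, and 0 passed. The share of all tested genes at that unadjusted level was not counted in these fits. The median of the 37 genes ran from 0.0133 to 0.128 over the libraries left out. The 95% intervals reached 0.141 to 0.231 to either side, and 1 of 37 did not hold 0, that of Bub1b (0.031 to 0.313). The genes called in Kif3a CRISPR and not in Ofd1 CRISPR, such as Aurkb (difference 0.18) and Cdca8 (0.12), were not shown to respond differently.

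Regulators of the transcription of mitotic genes were looked at next, in a list that joins activators with repressors such as Rbl1 and Rb1. For each list below, the share of genes that fell can be read against 8.09% of all tested genes in Ofd1 CRISPR and 10.9% in Kif3a CRISPR, and the share that rose against 6.79% and 9.19%. Of 20 such regulators 6 fell (30%) and 1 rose (5%) in Ofd1 CRISPR, and 5 fell (25%) and 1 rose in Kif3a CRISPR, with medians of -0.12 and -0.16. Nfyb and Nfya, the subunits B and A of the CCAAT-binding factor NF-Y, fell in both. Nfyb measured 78.8 and 76.1 CPM in GFP control, 53.2, 53.5 and 58.7 in Ofd1 CRISPR and 53.8 and 58.1 in Kif3a CRISPR. Its libraries did not overlap, with log2 fold changes of -0.49 (SE 0.0741, adjusted p = 0.00156) and -0.47 (SE 0.0818, adjusted p = 0.00219), and both calls held without any 1 of the 7 libraries. Nfya, at 152 and 155 CPM in GFP control and 108 to 126 in the targeted libraries, had -0.38 (adjusted p = 0.00446) and -0.47 (0.00169), with the first at 0.0518 without GFP control replicate 2. The remaining subunit, Nfyc, was the gene of this list that rose, by 0.32 in each comparison (adjusted p = 0.0146 and 0.0168). Leaving out 1 library at a time, the count of regulators that fell ran from 2 to 6 in each comparison.

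Rbl1 encodes p107, a pocket protein that can take part in DREAM. It measured 76.3 and 76.6 CPM in GFP control, 43.0, 48.7 and 57.0 in Ofd1 CRISPR and 49.3 and 54.5 in Kif3a CRISPR. Its log2 fold changes were -0.62 (SE 0.102, adjusted p = 0.00235) and -0.56 (SE 0.113, adjusted p = 0.00516), the second at 0.101 without Kif3a CRISPR replicate 1. The activators Foxm1 and Mybl2 did not pass by edgeR. Foxm1 measured 274 and 282 CPM in GFP control, 251, 287 and 254 in Ofd1 CRISPR and 233 and 249 in Kif3a CRISPR, with -0.077 (adjusted p = 0.521) and -0.21 (0.0983). Mybl2 had -0.29 (adjusted p = 0.102) and -0.36 (0.0601). In Kif3a CRISPR, Mybl2 passed under 5 of 15 alternatives, among them DESeq2 (adjusted p = 0.0431), and Foxm1 under 2, the replicate block (0.0377) and the fit of those 2 groups alone (0.0315). E2f1, an activator of S phase genes, fell by 0.33 (adjusted p = 0.0320) and 0.54 (0.00342), and Rb1, the retinoblastoma protein that restrains it, fell by 0.49 (0.00788) and 0.48 (0.0104). Lin54, the DNA-binding subunit of MuvB, fell by 0.37 in Ofd1 CRISPR (0.0417). The Nfyc calls were lost without GFP control replicate 1 (adjusted p = 0.206 and 0.199), in Ofd1 CRISPR also without GFP control replicate 2 and in Kif3a CRISPR also without either of its own libraries. E2f1 lost its call in Ofd1 CRISPR without either GFP control library or Ofd1 CRISPR replicate 1 or 2, with adjusted p of up to 0.186, and in Kif3a CRISPR without its replicate 1 (0.0577). Rb1 lost both calls without GFP control replicate 2, and in Kif3a CRISPR without either of its libraries, with adjusted p of up to 0.0726 and 0.0954. Lin54 kept its call without Ofd1 CRISPR replicate 3 and lost it without any other library, at up to 0.227. Nfyc, E2f1, Rb1 and Lin54 complete the list's calls and, like Plk4 among the centriole genes, were named after their values were seen.

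Of 21 other regulators of mitotic entry and exit, 1 rose (4.76%) and 2 fell (9.52%) in Ofd1 CRISPR, and 2 rose and 2 fell (9.52% each) in Kif3a CRISPR. Cdc25b, a phosphatase that activates Cdk1, measured 278 and 263 CPM in GFP control, 441, 373 and 376 in Ofd1 CRISPR and 383 and 366 in Kif3a CRISPR. It rose by 0.55 (SE 0.0827, adjusted p = 0.00149) and 0.47 (SE 0.0894, adjusted p = 0.00368), the second at 0.0583 without Kif3a CRISPR replicate 1. Chek1, the checkpoint kinase that restrains Cdc25 phosphatases, fell by 0.46 (adjusted p = 0.00982) and 0.36 (0.0348) on the log2 scale. Pkmyt1, which inhibits Cdk1, fell by 0.42 (0.0240) and 0.48 (0.0166). The calls of Chek1 and Pkmyt1 were lost without GFP control replicate 2 in both comparisons, and over all libraries left out their adjusted p reached 0.186 and 0.228.

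In the APC/C and kinetochore lists the shares called were below those of all genes in each direction and comparison, the highest being 6.67% and 8.11%. Of 15 APC/C genes 1 rose in Ofd1 CRISPR (Fzr1, the activator Cdh1, 0.32, adjusted p = 0.0170). In Kif3a CRISPR Anapc7 rose (0.30, 0.0191) and Ube2s fell (-0.29, 0.0490). Of 37 other kinetochore and checkpoint genes 1 rose and 1 fell in Ofd1 CRISPR, Cenpt (0.27, 0.0303) and Cenpq (-0.34, 0.0393), both subunits of the inner kinetochore. In Kif3a CRISPR 1 rose and 3 fell, led by Oip5 (-0.50, 0.0142), which helps load Cenpa, and Kntc1 (-0.34, 0.0366). Leaving out either GFP control library ended each call named here, with adjusted p of up to 0.306 (Ube2s), and Ube2s reached 0.350 without Kif3a CRISPR replicate 1.

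Of 17 other condensin and cohesin genes 2 fell in Ofd1 CRISPR (11.8%) and 5 in Kif3a CRISPR (29.4%). Leaving out 1 library at a time, these counts ran from 0 to 6 and from 0 to 5. Ncapd3, a condensin II subunit, measured 128 and 137 CPM in GFP control, 93.4, 109.9 and 105 in Ofd1 CRISPR and 94.1 and 98.8 in Kif3a CRISPR, all below the controls. It fell by 0.37 (SE 0.0779, adjusted p = 0.00939) and 0.46 (SE 0.0861, adjusted p = 0.00338), the first at 0.110 without GFP control replicate 2 and the second at 0.0680 without Kif3a CRISPR replicate 1. Ncaph, the kleisin of condensin I and so a partner of Ncapg, fell by 0.29 (0.0362) and 0.40 (0.00933). Of 31 other spindle and cytokinesis genes 1 rose and 1 fell in Ofd1 CRISPR (3.23% each), and 1 rose and 3 fell (9.68%) in Kif3a CRISPR. They were led by Pbk, a mitotic kinase (-0.56, adjusted p = 0.0354, and -0.63, 0.0267), and Numa1, which organises spindle poles (0.33, 0.0385, and 0.38, 0.0255). Without GFP control replicate 2 the calls of Ncaph, Pbk and Numa1 were lost in both comparisons, with adjusted p of up to 0.211, 0.241 and 0.198 over the libraries left out.

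Ofd1 sits at centrioles, and of 16 centriole duplication and centrosome genes 15 were tested. In Ofd1 CRISPR 2 rose and 2 fell (13.3% each), and in Kif3a CRISPR 1 rose (6.67%) and 3 fell (20%). Cep152, a scaffold that recruits Plk4 to centrioles, rose by 0.37 (adjusted p = 0.0140) and 0.44 (0.00629). Plk4, the kinase that starts centriole duplication, and Nedd1, which brings gamma-tubulin to spindles, fell in both, Plk4 by 0.35 in each (0.0359 and 0.0403). Nedd1 fell by 0.40 (0.0187) and 0.36 (0.0359). Cep97, which caps centrioles, fell in Kif3a CRISPR (-0.25, 0.0348). Without GFP control replicate 2 the calls of Cep152, Nedd1 and Cep97 were lost, with adjusted p of up to 0.149, 0.231 and 0.237 over the libraries left out. Plk4 kept its call in Ofd1 CRISPR without Ofd1 CRISPR replicate 3, kept it in Kif3a CRISPR without Ofd1 CRISPR replicate 1 or 3, and lost it without any other library, at up to 0.203 and 0.243.

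Of 26 S phase and replication genes 5 fell in Ofd1 CRISPR (19.2%), and 5 fell (19.2%) and 1 rose (3.85%) in Kif3a CRISPR. Leaving out 1 library at a time, the count that fell ran from 0 to 8 and from 1 to 9. The licensing factor Cdt1 measured 207 and 208 CPM in GFP control, 144, 169.6 and 157 in Ofd1 CRISPR and 123 and 145 in Kif3a CRISPR. Its log2 fold changes were -0.41 (adjusted p = 0.00909) and -0.63 (0.000914), and the second held without any 1 library. Cdc45, part of the replicative helicase, had -0.37 (0.0304) and -0.48 (0.0106), and Ccne2, cyclin E2, had -0.67 (0.00685) and -0.41 (0.0684). In Ofd1 CRISPR, leaving out GFP control replicate 1 ended the calls of Cdt1 (0.0674) and Ccne2 (0.0566), and over the libraries left out the adjusted p of Cdc45 reached 0.169. A list of 14 genes joined cell cycle inhibitors and quiescence genes with the D cyclins, which drive G1 progression. Of these 14, 13 were tested and 7 fell in each comparison (53.8%), among them the D cyclin Ccnd1 in both and Ccnd3 in Kif3a CRISPR (-0.57, adjusted p = 0.000736, named after its value was seen). Cdkn1a, the Cdk inhibitor p21 and a repressor of mitotic genes through DREAM, measured 11.1 and 6.91 CPM in GFP control, 2.51, 3.84 and 3.55 in Ofd1 CRISPR and 2.12 and 2.32 in Kif3a CRISPR. It fell by 1.45 (SE 0.228, adjusted p = 0.00197) and 2.02 (SE 0.268, adjusted p = 0.000429). Sesn2, a leucine sensor, had -1.41 (adjusted p = 0.000208) and -1.70 (4.1e-05), and Ccng2, an atypical cyclin linked to arrest, had -0.44 (0.00308) and -0.80 (0.00012). Ccnd1, cyclin D1, stood at 803 and 808 CPM in GFP control and at 456 to 596 in the targeted libraries, and fell by 0.56 (0.00775) and 0.64 (0.00470). The Cdkn1a and Sesn2 calls held without any 1 library, while Ccng2 in Ofd1 CRISPR stood at 0.0565 without GFP control replicate 1 and Ccnd1 in Kif3a CRISPR at 0.103 without Kif3a CRISPR replicate 1.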

How the data were processed

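The authors deposited raw, unscaled counts of reads for each gene symbol in each library, per the file header and the values. Per the submitters' processing notes, the tools were STAR and DESeq2 and the build mm9, without versions or roles. Which read counter, annotation, strand setting and filters were used is not given in the sources used here. For this reason, reads shared by similar genes or by antisense partners could move single genes by an unknown amount. Per the labels, libraries were stranded poly-A libraries read as single-end 75 bp reads in 1 run. Samples were grouped by their titles.

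Of 24047 genes, 6795 had no count and 12875 passed edgeR's filterByExpr (99.96% of counts). In R 4.3.3, edgeR 4.0.16 fitted 1 quasi-likelihood model with TMM factors and a mean per group to all 7 libraries (4 residual degrees of freedom, common biological coefficient of variation 7.43%). Each contrast was tested with the F test, with Benjamini-Hochberg adjustment over all tested genes and calls under 0.05. Standard errors (SE) come from the F statistic. The script was tested on simulated counts. DESeq2 1.42.0 and limma 3.58.1 (voom), other scalings and filters, a replicate block, fits of 2 groups and fits without each library were alternatives. Promoter elements were counted with Python 3.11.15 in RefSeq windows (GRCm38.p6), and lengths came from GENCODE M21.

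Each of the 37 genes is given by value. Full statistics were given for those called and for the largest change in each role group. Of the other lists, counts and up to 2 called genes per comparison were named, plus Ofd1, Kif3a, Foxm1, Mybl2, Cdkn1a and Ccnd1. The members and lists were chosen with earlier results of these data known.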

Additional observations from a re-analysis of the deposited data

How the results depend on the processing

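Calls moved, and so did directions of genes that were not called. None of the 37 genes, or of the other genes named with a call, changed direction while called under any alternative run. Between scalings, 3 members changed sign in Ofd1 CRISPR and 2 in Kif3a CRISPR, none of them called. Over the libraries left out, Cdc20 in Kif3a CRISPR ran from -0.039 to 0.137. RLE factors, both other filters and limma-voom kept the counts of called members within 1.5 times. Library totals alone gave 2 higher and 2 lower members in Ofd1 CRISPR and 2 higher in Kif3a CRISPR, and moved the share of higher calls among all genes in Ofd1 CRISPR from 45.6% to 57.5%. DESeq2 gave 7 lower members in Ofd1 CRISPR. A fit of the 2 groups compared gave 1 lower in Ofd1 CRISPR and 3 higher in Kif3a CRISPR. Without 1 library at a time, edgeR called 0 to 1 higher and 0 to 10 lower in Ofd1 CRISPR, and 0 to 3 higher and 0 to 11 lower in Kif3a CRISPR, whose median ran from -0.158 to -0.0773. Over all genes, 664 to 2831 were then called in Ofd1 CRISPR and 686 to 3119 in Kif3a CRISPR, against 1915 and 2584. For Ofd1 CRISPR against Kif3a CRISPR, 23 were called, and 107 by DESeq2, 80 without the filter and 191 with the block. Fits without a library have fewer samples; other causes of these moves were not tested.

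With a replicate block, 2 members were higher and 13 lower in Ofd1 CRISPR, and 3 higher and 13 lower in Kif3a CRISPR. Over all genes 3496 and 3575 were called. Only Ofd1 CRISPR has a replicate 3, so the block fits that library exactly and takes it out of the contrast. In Ofd1 CRISPR the median was -0.0605 with the block and -0.0591 without replicate 3, a fit that called 10 members lower. Pairing and the loss of that library were not tested apart. Deviations of same-numbered libraries correlated at 0.152 to 0.234 across tested genes, except for GFP control with Kif3a CRISPR, at -0.00857. Deviations in a group of 2 mirror each other, so these values are not independent. Not all were above 0.1, and the main fit did not pair the libraries. Whether the numbers mark pairs was not settled here.

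Among the other lists, the lowest counts in Kif3a CRISPR over the libraries left out, by edgeR, were 0 higher and 0 lower for APC/C, condensin, kinetochore, spindle, centriole and entry or exit genes. The list of inhibitors, quiescence genes and D cyclins had at least 3 lower genes in Ofd1 CRISPR and 4 in Kif3a CRISPR. A median 95% half-width of 0.179 to 0.197 limits what 2 or 3 libraries a group can show.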

Other observations

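The promoter elements counted in the 37 genes were also counted in the 9 other lists, as a description without a test. Either hexamer, in 85.7% of the windows of the 37 genes, was found in 70.4% of 27 windows of other spindle and cytokinesis genes, 50% of 12 windows of other condensin and cohesin genes and 46.9% of 32 windows of other kinetochore and checkpoint genes. It was found in 40% of 15 windows of centriole and centrosome genes, 35% of 20 windows of other mitotic entry and exit regulators and 33.3% of 24 windows of G2/M transcription regulators. The lowest shares were 18.8% of 16 windows of APC/C subunits, 13% of 23 windows of S phase genes and 0 of 14 windows of inhibitors, quiescence genes and D cyclins.

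Either E2F-type octamer was found in 2.86% of the windows of the 37 genes. Among the other lists it was found in 34.8% of the windows of S phase genes, 33.3% of condensin and cohesin and 25% of kinetochore and checkpoint windows. The shares were 13.3% of centriole, 12.5% of transcription regulator and 10% of entry and exit windows, and 0% of the spindle and cytokinesis, APC/C and inhibitor lists. Over the windows of all tested genes, either hexamer was found in 13.1% and either E2F-type octamer in 4.95%.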
